A study of Mus musculus with 2 samples.

Results

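Of the 6994 chromatin boundaries on mouse chromosomes 1 to 19 in sorted olfactory neurons, 191 lay at a microRNA gene (2.73%, 95% Wilson interval 2.37 to 3.14). A boundary counted when the 5′ end of an annotated gene of type miRNA lay inside its 5 kb interval or within 10 kb on either side, a window of 25 kb in all. The whole list held 7367 boundaries, the X chromosome included. The rule for members used gene positions alone and not the strength of the boundaries. It was set with earlier results of these data known.

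The boundaries come from in situ Hi-C, a method that joins and sequences DNA ends lying close together in fixed nuclei, and mark places that few contacts cross. There was 1 group of 2 biological replicates, of 170000 and 220000 cells, made from the olfactory epithelium of adult mice of the strain 129P2/OlaHsd, of mixed sex. The mice carried a MOR28-GFP allele, and neurons expressing the odorant receptor gene Olfr1507 were sorted by their GFP. No treatment is named, fixation was with 1% formaldehyde for 10 min, and chromatin was cut with DpnII. The authors combined both replicates before they called boundaries, so every value below has no replicate error, and the depth behind a boundary is unknown. No expression was measured, so neither the cell type nor the activity of any microRNA gene could be checked against markers. Intervals are 95% intervals that cover counting error only. No difference between groups of boundaries or genes was tested, since neither boundaries nor genes are replicates.

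A microRNA is a short RNA cut from a hairpin in a longer transcript. Its seed, bases 2 to 8 from the 5′ end, pairs with messenger RNAs, and pairing lowers their translation or stability. Many microRNA hairpins lie in introns of coding genes and are transcribed with the host, while others have a noncoding primary transcript of their own, and many are arranged in clusters that share 1 primary transcript. MicroRNA processing is known to be needed for olfactory neurons to form.

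Several microRNA genes known from neurons, ciliated cells or stem cells lay at boundaries as sets with a shared seed, and their mature sequences are shown for that reason. The sequences are those of RefSeq on GRCm38.p6, written 5′ to 3′ with the seed in capitals. The pair in chr11:75173388-75173747 on the plus strand, Mir212 and Mir132, shares its 3p seed.
miR-132-3p: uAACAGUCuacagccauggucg
miR-212-3p: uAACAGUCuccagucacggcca

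The let-7 pair, in chr15:85706603-85707403 on the plus strand, shares the 5p seed of the let-7 family, whose members repress growth and stem cell genes.
let-7c-5p: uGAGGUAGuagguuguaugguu
let-7b-5p: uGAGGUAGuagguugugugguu

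Mir449c and Mir449a lie in chr13:113035983-113037624 on the plus strand with Mir449b. They belong to a family of multiciliated cells and share the 5p seed.
miR-449c-5p: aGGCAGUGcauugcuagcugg
miR-449a-5p: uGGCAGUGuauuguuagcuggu

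The cluster of Mir290a to Mir295, in chr7:3218626-3220841 on the plus strand, is known from embryonic stem cells. Of its 3p products, miR-291a, miR-294 and miR-295 share 1 seed.
miR-291a-3p: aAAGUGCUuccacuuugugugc
miR-294-3p: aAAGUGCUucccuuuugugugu
miR-295-3p: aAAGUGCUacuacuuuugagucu

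Of 258 microRNA genes at boundaries whose sequence was looked up, 109 were found in the RefSeq table, with 182 mature sequences of 17 to 25 bases and 168 different seeds. The 109 include 0 of the 53 genes in Sfmbt2 described below, so the counts of seeds leave out that cluster. Among the 109, 12 seeds occurred in more than 1 gene, and for 8 of those 12 the genes stood at 1 boundary. Those genes are close neighbours, which tend to share a window by position alone. Shared seeds away from boundaries were not counted. The 4 seeds found at 2 boundaries each belonged to less studied microRNAs. Mir3473b, antisense in Ccdc162 at chr10:41670739-41670793, and Mir3473e, in an intron of Rbks at chr5:31667231-31667340, shared 1 seed and much of the rest of the molecule, and stood at boundaries of strength 0.577 and 0.282.
miR-3473b: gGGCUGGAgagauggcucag
miR-3473e: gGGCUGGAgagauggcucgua

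In all, 265 of the 2054 autosomal microRNA gene models had their 5′ end in a boundary window (12.9%, 11.5 to 14.4). The share among protein-coding genes was 13.2% (2744 of 20807 genes, 12.7 to 13.7), so the intervals of both shares overlapped. The windows themselves covered 7.30% of the assembled autosomal bases. Models with a Mir symbol stood in a window in 149 of 1084 cases (13.7%, 11.8 to 15.9), and predicted models with a Gm symbol in 113 of 963 (11.7%, 9.85 to 13.9). The 3 other models were mmu-mir-3535, mmu-mir-7686 and Snord43, which carries the symbol of a small nucleolar RNA but has the type miRNA in the annotation.

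A single locus gave 53 of the 265 genes. The polycomb-related gene Sfmbt2 carries a rodent cluster of 119 microRNA models in its introns, and 53 of them lay around the only boundary inside the gene. Without Sfmbt2, an alternative chosen after seeing the data, 212 of 1935 microRNA genes were at boundaries (11.0%, 9.64 to 12.4). That interval lay below the one for coding genes. The 1935 still hold the 39 genes of Mir379 to Mir3072 and the 14 of Mir770 to Mir136, with 0 in a window. Genes of a cluster are not independent, so the interval is too narrow and no depletion is read from it. The other boundaries were mostly single cases: 176 of the 191 held 1 microRNA gene and 15 held more. By chromosome the share of boundaries at a microRNA gene was highest on chromosome 19 (10 of 190, 5.26%) and chromosome 11 (20 of 418, 4.78%) and lowest on chromosome 6 (3 of 424, 0.708%).

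Most microRNA genes at boundaries lay in coding genes. A host here is a protein-coding gene on the same strand whose body holds the microRNA gene. Of the 265 genes, 162 had a coding host (61.1%, 55.1 to 66.8), beside 44.8% of all autosomal microRNA genes. Sfmbt2 made up part of the gap: without it the shares were 51.4% at boundaries (109 of 212, 44.7 to 58.1) and 41.4% overall (802 of 1935, 39.3 to 43.7). Among the genes with no coding host, 31 lay antisense in a coding gene (11.7% of the 265) and 12 in a long noncoding gene (4.53%), 2 of them in both. The remaining 62 lay outside all of these (23.4%, 18.7 to 28.9), beside 34.4% of all autosomal microRNA genes.

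Read the other way, 162 of 921 hosted microRNA genes were in a window (17.6%, 15.3 to 20.2) and 103 of 1133 unhosted ones (9.09%, 7.55 to 10.9). Without Sfmbt2 the hosted share was 13.6% (109 of 802, 11.4 to 16.1), near the 13.2% of coding genes. The median distance to the nearest boundary midpoint was 58.6 kb for hosted microRNA genes without Sfmbt2, 80.0 kb for unhosted ones and 60.1 kb for coding genes. By these medians hosted microRNA genes lay about as far from boundaries as coding genes did, and unhosted ones farther. Only Sfmbt2 was left out: the unhosted group keeps its clusters, among them the 39 genes of Mir379 to Mir3072, 342 to 380 kb from a midpoint. The part of such clusters in the difference was not tested.

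Within the hosts, most microRNA genes were intronic. Outside Sfmbt2, 71 of the 109 hosted genes at boundaries lay in introns (65.1%, 55.8 to 73.4), 14 overlapped coding sequence, 15 a UTR and 9 a noncoding exon, beside 71.6% intronic among all hosted autosomal genes outside Sfmbt2. The transcription start site (TSS) of the host was near in many cases. It lay within 10 kb of the microRNA gene for 56 of the 109 (51.4%, 42.1 to 60.6), beside 35.3% overall (283 of 802, 32.1 to 38.7).

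Coding promoters were frequent at these boundaries. The windows of 99 of the 191 held at least 1 protein-coding TSS (51.8%, 44.8 to 58.8), while 29.7% of all autosomal boundaries had one. At least 2 coding TSSs were counted at 40 (20.9%), beside 7.62% of all. Measured from the microRNA genes, a coding TSS within 10 kb was present for 89 of the 212 genes outside Sfmbt2 (42.0%, 35.5 to 48.7) and for 611 of 1935 overall (31.6%, 29.5 to 33.7). The microRNA genes with such a TSS were in a boundary window in 14.6% of cases (89 of 611), and those without one, outside Sfmbt2, in 9.29% (123 of 1324).

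Host and promoter together divided the 191 boundaries into 4 classes. At 50 (26.2%) the microRNA gene lay in a coding gene whose own TSS was in the window. At 54 (28.3%) the host had its TSS elsewhere, and 14 of these windows held the TSS of another coding gene. At 35 (18.3%) there was no host but another coding TSS in the window, and at 52 (27.2%) neither. A boundary with several microRNA genes took the first of these classes that any of them met. The boundary of Mir290a to Mir295 is thus counted as hosted through Mir292b alone. So 139 of 191 boundaries with a microRNA gene (72.8%, 66.1 to 78.6), and 201 of the 265 microRNA genes (75.8%, 70.4 to 80.6), were tied to a coding gene by host or promoter. Without Sfmbt2 it was 148 of 212 genes (69.8%, 63.3 to 75.6). The combined share was not counted over all autosomal microRNA genes or all boundaries, so no excess can be read from it. Taken singly, 44.8% of all autosomal microRNA genes had a coding host and 29.7% a coding TSS within 10 kb.

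The strength of these boundaries, the authors' own score, was close to that of the list. Its median was 0.627 (0.537 to 0.717) over the 191, with quartiles of 0.369 and 0.978, and 0.579 (0.562 to 0.593) over all autosomal boundaries, with quartiles of 0.325 and 0.996. The authors' strong class, which starts at 0.5, held 115 of the 191 (60.2%, 53.1 to 66.9), beside 56.0% of all autosomal boundaries. A share near the background gives no result about these boundaries. They were also found along the whole scale: 12 lay among the 700 weakest autosomal boundaries and 14 among the 700 strongest.

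With a coding TSS in the window, boundaries with a microRNA gene had a median strength of 0.638 (0.515 to 0.760, 99 boundaries) and those without a microRNA gene 0.700 (0.668 to 0.727, 1975 boundaries). Without a coding TSS, the medians were 0.601 (0.482 to 0.734, 92 boundaries) and 0.528 (0.507 to 0.545, 4828 boundaries). The intervals overlapped in both cases. Among the 4 classes the medians were 0.666 with the host's TSS in the window, 0.571 with it elsewhere, 0.583 with only another coding TSS and 0.640 with neither, and the strong share ran from 57.4% to 63.5%. The intervals of the 4 medians overlapped one another.

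**Figure D1:**
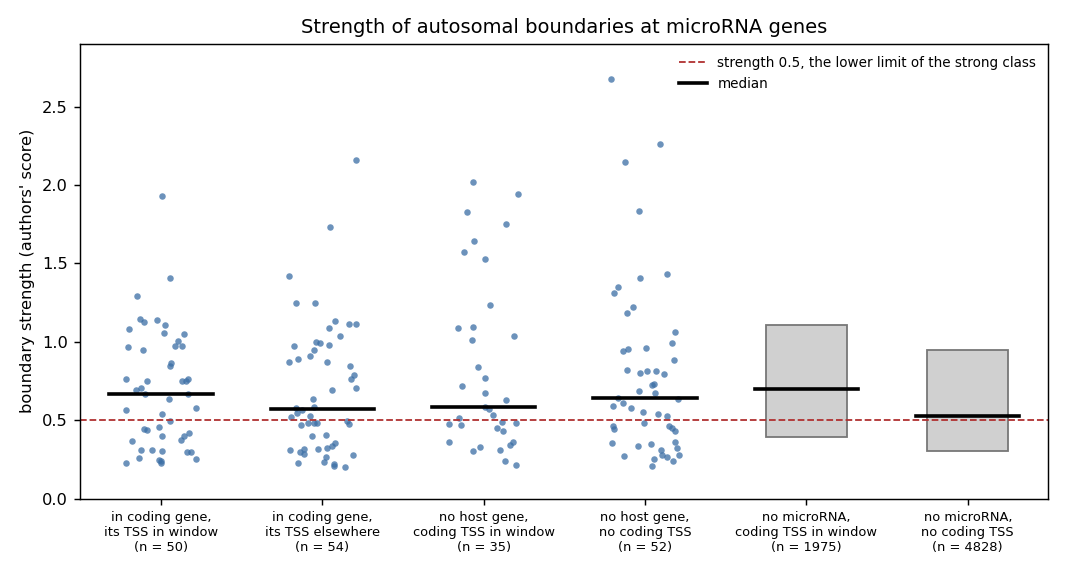
Boundary strength (vertical axis, the authors' score) for the 191 autosomal boundaries at microRNA genes in 4 classes by host and promoter, 1 point per boundary with the median as a black bar; grey boxes give the quartiles of boundaries with no microRNA gene, with and without a coding TSS. The 4 medians lie between 0.571 and 0.666, and each class holds both weak and strong boundaries.

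**Figure D2:**
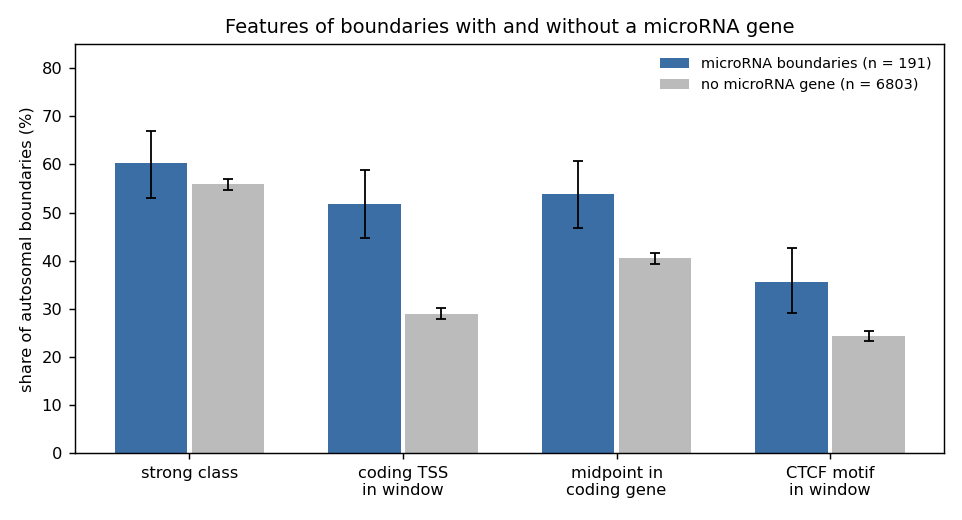
Share of autosomal boundaries (vertical axis, percent) in the strong class, with a coding TSS in the window, with the midpoint in a coding gene and with a CTCF motif match in the window, for the 191 boundaries at microRNA genes and the 6803 others; error bars are 95% Wilson intervals. The intervals overlap for the strong class and are apart for the other 3 features.

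The sequence around the boundaries was set beside these shares. CTCF is a DNA-binding protein that stops the extrusion of loops and is found at many boundaries, and its core motif was searched on both strands of each window. It was matched in 68 of the 191 windows (35.6%, 29.2 to 42.6), beside 24.6% of all autosomal boundaries and 11.3% of all 25 kb tiles of the autosomes (10820 of 95843). A match is a run of letters and not a measured binding site. The windows at microRNA genes also had a median GC content of 45.6% against 43.1% over all autosomal boundaries, and a median of 28.7% against 31.1% of bases in annotated repeats. The part of GC content in the share of matches was not tested. Median strength was 0.693 with a match (68 boundaries) and 0.588 without (123 boundaries), and over all autosomal boundaries 0.738 and 0.519.

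Left of the midpoint, 21 of 48 matches at microRNA boundaries were on the forward strand (43.8%, 30.7 to 57.7), and right of it 26 of 39 (66.7%, 51.0 to 79.4). Over all autosomal boundaries the shares were 38.2% and 63.5%. The stretches around matches at 4 microRNA loci are shown here because 3 of the clusters described below, and a gene for miR-124, stand beside them; each runs 5′ to 3′ on the strand of the match in GRCm38, with the matched motif in capitals. They lie at chr13:113036100-113036129 on the minus strand (Mir449), chr15:85716193-85716222 on the plus strand (let-7), chr7:3222093-3222122 on the plus strand (Mir290 to Mir295) and chr2:180895019-180895048 on the minus strand (Mir124a-3).
Mir449: cctccttatCCACCAGATGGCactatttcc
let-7: ttgtcctgtCCACCAGGTGGCgccctgcac
Mir290 to Mir295: gtgacttggCCAGTAGATGGCagtcttggt
Mir124a-3: accaggacgCCAGCAGGTGGCgctggctgc

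The share of clusters with a member at a boundary and the share of single microRNA genes had overlapping intervals, but they are unlike measures. A cluster here is a run of at least 2 microRNA genes on 1 strand with neighbouring 5′ ends at most 10 kb apart. Of 110 autosomal clusters, 15 had a member in a window (13.6%, 8.44 to 21.3), at 14 boundaries, beside 11.0% of single microRNA genes (180 of 1634, 9.59 to 12.6). Any 1 member was enough for a cluster to count, so a cluster had more chances than a single gene. Counted by gene, 85 of 420 clustered genes were in a window (20.2%, 16.7 to 24.3), and 32 of 301 without Sfmbt2. The boundaries of the 15 clusters had a median strength of 0.700 and 11 of the 14 were strong. The interval of that share, 52.4 to 92.4, covered the 58.8% strong among the 177 other boundaries.

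The strongest of them, of strength 1.57 and stronger than 91.5% of autosomal boundaries, was at chr11:75165001-75170000 beside Mir212 and Mir132, which are induced by neuronal activity through CREB. Their 5′ ends lay 5.89 and 6.18 kb to the right of the midpoint, transcribed away from it, in the long noncoding gene 1700016P03Rik. The TSS of Hic1, a transcriptional repressor, lay inside the interval, 2.02 kb to the right of the midpoint, and that of Ovca2, a hydrolase gene, 11.3 kb. No CTCF motif match was in this window.

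Mirlet7c-2 and Mirlet7b lay 10.9 and 10.2 kb to the left of the midpoint of a boundary of strength 0.994 at chr15:85715001-85720000, in the long noncoding gene Lncppara. This window held no coding TSS. It held 2 CTCF motif matches, 7.98 kb to the left of the midpoint on the minus strand and 1.29 kb to the left on the plus strand (the second is printed above).

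Mir449c, Mir449b and Mir449a were the only cluster of 3 or more members that lay whole inside a boundary interval, chr13:113035001-113040000, of strength 0.693. Mir449c was 1.52 kb left of the midpoint and Mir449a 0.034 kb right of it. All 3 lie in an intron of Cdc20b, whose TSS was 2.39 kb left of the midpoint. The TSS of Gpx8, a peroxidase of the endoplasmic reticulum, was 8.91 kb to the right.

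The 7 genes from Mir290a to Mir295 stood together on the right side of a boundary of strength 0.707 at chr7:3210001-3215000, between 6.13 and 8.27 kb from its midpoint. Mir290b and Mir292b lie on the other strand at the same place. The cluster overlaps the 3′ end of Nlrp12, a gene of innate immunity on the minus strand, and Mir292b, which lies in its UTR on the same strand, was the only 1 of the 9 with a coding host. Nothing in these data says whether the cluster was transcribed in the neurons.

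The cluster in Sfmbt2 spans 53.0 kb, chr2:10465287-10518279, in a gene of 225 kb. Its boundary, chr2:10505001-10510000, was weak, with a strength of 0.228, stronger than 7.09% of autosomal boundaries. The 53 microRNA genes in the window lay on both sides of the midpoint, 27 left and 26 right, with 11 of them inside the interval, and 66 more lay outside the window. By symbol, 11 were of the Mir669 group, 10 of Mir466, 5 of Mir467 and 4 of Mir297, and 23 had Gm symbols. The nearest boundaries on either side of the cluster were 128 kb to the left, of strength 0.906, and 594 kb to the right, of strength 0.369.

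Other clusters at boundaries had 2 members. Mir3064 and Gm25994 lie in Ddx5 (strength 1.14), which encodes an RNA helicase of the complex that cuts microRNA precursors. Mir1949 and Gm49347 (1.06), Gm25732 and Gm24245 (0.734), Gm24744 and Gm26137 (0.537) and the pair of mmu-mir-7686 and Mir202 beside Utf1 (0.627) had both members in the window. Mir7019 in the kinase gene Pink1 (0.890) and Mir6345 in Ppp1r7 (0.518) were each in a window without their cluster partner. Mir2861 and Mir3960 in the kinase gene Cdk9 (0.371) and Gm23419 and Mir6935 in the actin gene Actg1 (0.313) stood at weak boundaries.

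Mir193a and Mir365-2, too far apart to be a cluster by this rule, lay on opposite sides of 1 boundary of strength 0.672 at chr11:79720001-79725000. Mir193a was 10.5 kb left of its midpoint and Mir365-2 3.90 kb right. No coding TSS and no CTCF motif match was in that window.

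**Figure D3:**
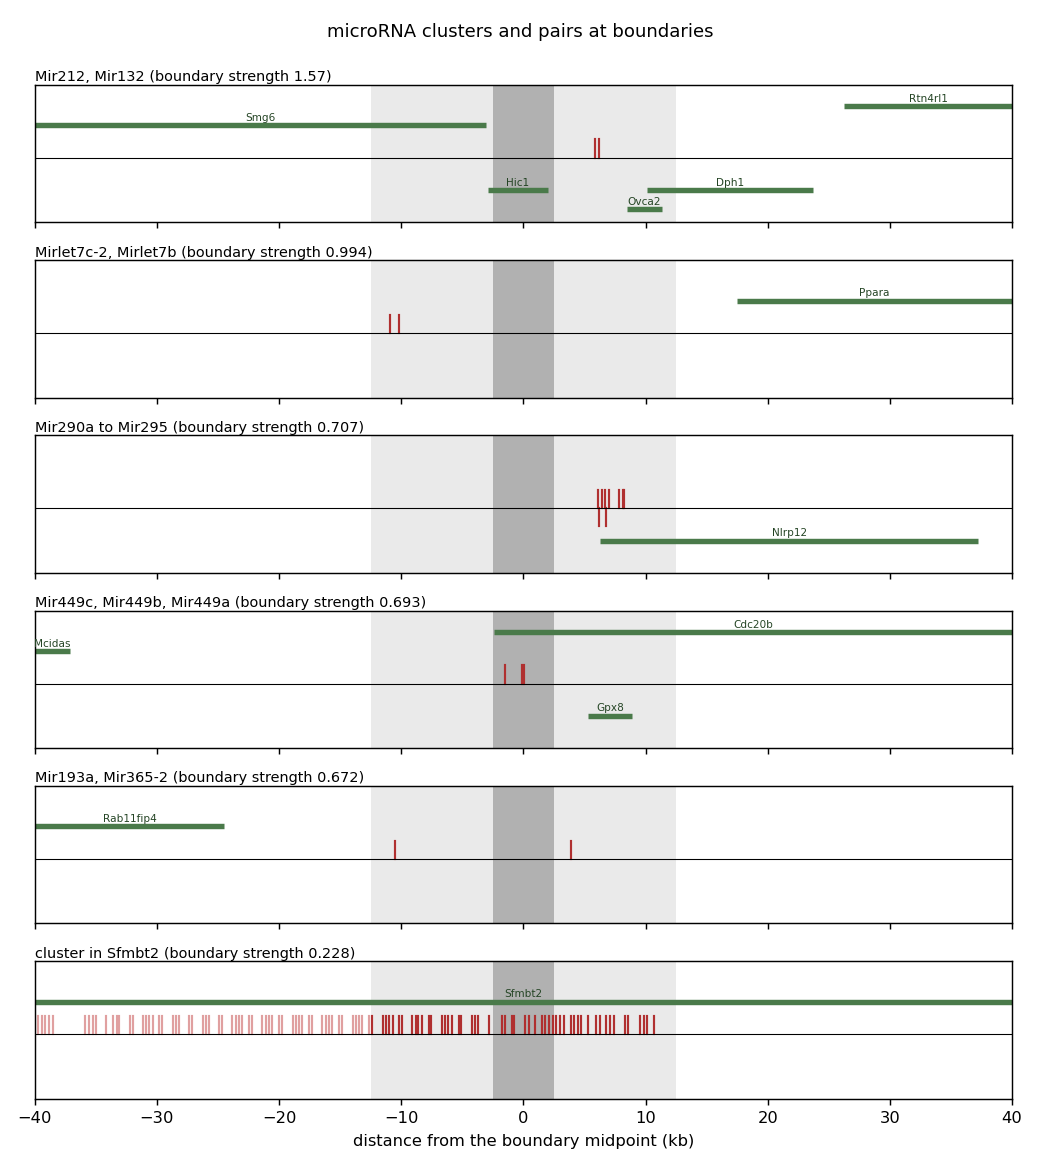
Maps of 6 boundaries with microRNA clusters or pairs; the horizontal axis is the distance from the boundary midpoint in kb, the dark band the 5 kb interval and the light band the 25 kb window. Red ticks are 5′ ends of microRNA genes (pale where outside the window), green bars protein-coding genes, above the line on the plus strand and below it on the minus strand. Mir449 lies inside the interval, the others beside it, and the Sfmbt2 cluster crosses its boundary.

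The other clusters of 5 or more genes had no member in a window. The nearest midpoint was 342 kb from the 39 genes of Mir379 to Mir3072 and 196 kb from the 14 genes of Mir770 to Mir136, both in the imprinted Dlk1-Dio3 region. It was 592 kb from the 6 genes of Mir344d-3 to Gm23873, 41.2 kb from Mir17 to Mir92-1, the oncogenic miR-17 to 92 cluster, and 56.8 kb from Mir302b to Mir367, a cluster of stem cells.

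MicroRNA genes showed no peak over the interval. Outside Sfmbt2, 43 of 212 lay in the interval itself (20.3%, 15.4 to 26.2), 83 to its left and 86 to its right. Their density, summed over boundaries, was 8.60 per kb within 2.5 kb of the midpoint, 9.30 per kb from 2.5 to 7.5 kb and 7.60 per kb from 7.5 to 12.5 kb. For coding TSSs the densities were 146, 120 and 81.1 per kb over the same distances. Of the 43 in the interval, 12 were left of the midpoint and 31 right, while coding TSSs in intervals were 356 left and 374 right. Transcription ran away from the midpoint for 93 of the 212 (43.9%, 37.4 to 50.6).

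The window's edge at 10 kb from the interval separated neighbours by a small distance. Gm25353, Gm25158 and Gm44344 were the last inside, at 9.96, 9.92 and 9.84 kb, and Gm22065, Mir6931 and Gm27844 the first outside, at 10.07, 10.08 and 10.10 kb.

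**Figure D4:**
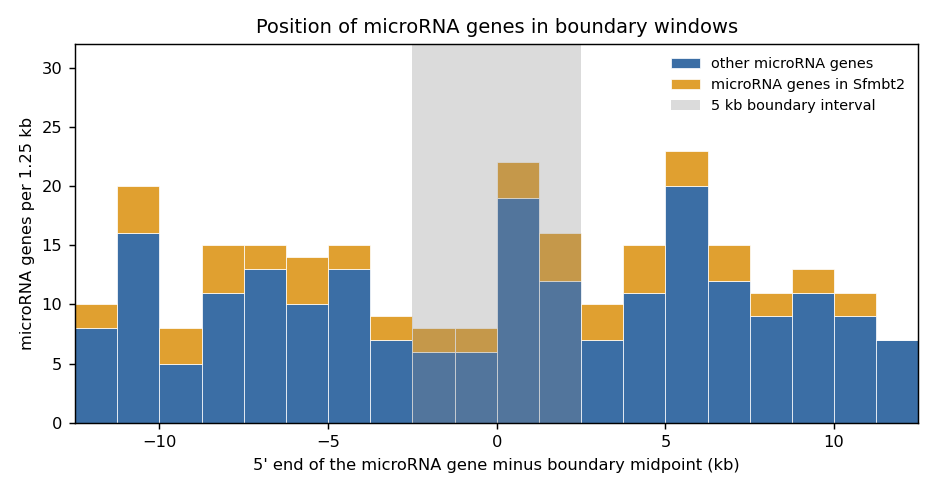
Number of microRNA genes (vertical axis, per 1.25 kb) by distance of their 5′ end from the boundary midpoint (horizontal axis, kb), for the 212 genes outside Sfmbt2 (blue) and the 53 in Sfmbt2 (orange); the grey band is the 5 kb interval. Genes fill the window with no peak over the interval: 43 of the 212 lie in it.

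At the 15 strongest boundaries with a microRNA gene, 3 microRNA genes had a coding host, 8 boundaries had a coding TSS in the window and 5 had neither. Over all 191 boundaries, 54.5% had a hosted microRNA gene, 51.8% a coding TSS and 27.2% neither. The 15 were picked by strength and are few, so no trait of strong boundaries is read from these counts. The highest strength, 2.68 (rank 27 of 6994), was beside Gm23424 on chromosome 18, and the next, 2.26, beside Mir3471-1 on chromosome 4, and neither had a coding host or TSS. The same held for Gm22707 (2.14), Mir680-3 (1.83) and Mir6377 (1.43). The hosted ones were Mir3084-1 in an intron of Cbwd1 (2.16), Mir6963 in an intron of the integrin gene Itga5 (1.93) and Mir5622 in an intron of Tpx2, a spindle factor (1.73).

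Beside Mir6963 with the TSS of Itga5 and the Mir212 and Mir132 pair described above, those with a coding promoter were Gm27512 with the TSSs of the translation factor gene Eef1b2 and the respiratory chain gene Ndufs1 (2.02), Gm27773 with the ATP synthase gene Atp5o (1.94), Gm27618 with the cytochrome P450 gene Cyp2d26 (1.83) and Gm44348 with the transporter gene Abcc12 (1.75). Gm26300 stood with Vmn1r188, a vomeronasal receptor gene (1.65), and Gm22475 with Ldhal6b, a lactate dehydrogenase gene (1.53). The window at Gm27512 had 4 CTCF motif matches. At the other end, the 5 weakest were at Gm44360 in Ccdc141 (0.20), Gm27847 (0.208), Gm24270 in Peak1 (0.211), Gm24020 (0.214) and Mir107 in Pank1, a gene of coenzyme A synthesis (0.220).

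Further well-known microRNA genes, picked after their values were seen, stood at boundaries of both classes. Strong ones lay at Mir210, a microRNA induced by low oxygen (1.09, with the TSSs of Lmntd2, Rassf7 and Phrf1), at Mir320 beside the RNA polymerase III gene Polr3d (1.01), at Mir219a-1 (0.769, with 5 coding TSSs), at Mir186 in an intron of Zranb2 (0.753) and at Mir22 (0.566). Weak boundaries lay at Mir486 in an intron of the ankyrin gene Ank1 (0.481), Mir375 of pancreatic islets (0.454), Mir92b (0.365) and Mir152 in an intron of Copz2 (0.298).

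Of the 91 autosomal genes of microRNA families known from olfactory or other neurons and sensory cells, 8 were in a window (8.79%, 4.52 to 16.4). The share over all autosomal microRNA genes was 12.9%, and 11.0% without Sfmbt2. The list holds the 39 genes of the cluster of Mir134, none of them at a boundary, and among the 52 others the share was 15.4% (8.01 to 27.5). The 8 were Mir132, Mir212, Mir449a, Mir449b, Mir449c, Mirlet7b, Mirlet7c-2 and Mir124a-3. All but Mir124a-3 stand in clusters, whose genes are not independent, so both intervals are too narrow. The Mir449 genes are of the family of multiciliated cells described above. Mir124a-3 is 1 of 3 genes for miR-124, an abundant microRNA of neurons; it lay 3.46 kb left of the midpoint of a weak boundary of strength 0.320 with no coding TSS in the window. The other miR-124 genes, Mir124a-1 and Mir124a-2, were 21.8 and 172 kb from the nearest midpoint.

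No gene of the miR-200 family, which is known to act in olfactory neurogenesis, was at a boundary, and the 5 lay 66.8 to 115 kb from the nearest midpoint. The miR-183 cluster of sensory cells lay 47.8 to 51.5 kb away, the 3 miR-9 genes 32.8 to 76.3 kb, the miR-128 genes 110 and 181 kb, the miR-7 genes 14.6 to 29.2 kb and the miR-138 genes 46.8 and 54.6 kb.

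The genes that make and use microRNAs were counted by their own TSS. Of 28, 7 were in a window (25.0%, 12.7 to 43.4), beside 13.2% of coding genes, a share that the interval covers. Tnrc6b, a scaffold that links Argonaute to mRNA decay, stood 8.81 kb from the midpoint of a boundary of strength 2.11, Ddx5 11.7 kb from one of 1.14 and Zswim8, the ligase adaptor of target-directed microRNA decay, 10.1 kb from one of 0.999. The boundary at Ddx5 is the one of Mir3064 above. That at Zswim8 also held Mir6946, in an intron of the coat protein gene Sec24c. The other 4 were at weak boundaries: Hsp90aa1 (0.344) and Hsp90ab1 (0.295), chaperones that load Argonaute, Tnrc6c (0.245), a second scaffold of that family, and the helicase gene Ddx6 (0.244). The genes of the cutting enzymes were outside the windows, with Drosha at 128 kb, Dgcr8 at 46.7 kb and Dicer1 at 79.5 kb, as was Ago2, which encodes the slicing Argonaute, at 12.6 kb from a midpoint of strength 1.38.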

How the data were processed

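In situ Hi-C of 2 biological replicates gave 1 list of boundaries. Per the submitters' processing notes the build is GRCm38; aligner, boundary caller and depth: not given in the sources used here. The authors deposited a strength score for each 5 kb boundary from the combined contacts, on an unstated scale; the class changes at 0.5 and the lowest score is 0.2. Boundaries were joined by position to GENCODE M21 and to the GRCm38 sequence with Python 3.11.15, pandas 2.3.3, NumPy 2.4.6, SciPy 1.17.1 and matplotlib 3.10.9. The 5′ end of a gene model was its TSS, and the reference is of another strain than the mice. Medians have intervals from the binomial distribution and shares have Wilson intervals. Mature sequences were looked up in the RefSeq table for genes outside chromosome 18. The scripts were tested on simulated data. Alternatives covered the window, the microRNA models, the host strand, the definition of a promoter and the cluster gap. The rule for named genes took the 15 strongest and 5 weakest boundaries, the 12 clusters at the strongest boundaries, the list members at boundaries and the 3 genes on each side of the window edge; other genes were named after their values were seen. The members and lists were chosen with earlier results of these data known.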

Additional observations from a re-analysis of the deposited data

How the results depend on the processing

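With 1 pooled list, no replicate could be left out. No paired analysis was possible because there was 1 group. Of 40 alternatives, 22 left the value within its interval or, for a count, within 1.5 times, 18 moved it and 0 reversed it. The 191 boundaries became 41 with the interval alone, 122 with 5 kb, 360 with 25 kb, 104 with Mir symbols only and 115 with strong boundaries only. The share in a coding host, 61.1%, became 72.8% with a host on either strand, 72.5% with Mir symbols only and, in an alternative chosen after seeing the data, 51.4% without Sfmbt2. The share with a coding TSS, 51.8%, became 42.4% for a TSS within 10 kb of the microRNA gene, 31.7% with the interval alone and 72.5% with 25 kb. The 15 clusters became 31 with a gap of 50 kb and 8 with Mir symbols only. The share with a CTCF motif match, 35.6%, became 9.95% in the interval alone and 51.8% with 25 kb. For coding TSSs and motif matches, the shares over all autosomal boundaries are given above for the 10 kb window only. No excess can be read at the other windows. The 7 pathway genes became 0 with the interval alone and 12 with 25 kb. The 8 genes of the list of neuron and sensory cell families became 3 with the interval alone, those of Mir449. Wider windows hold more genes by construction; the cause of the other shifts was not tested. The median strength stayed between 0.566 and 0.640 and the strong share between 58.5% and 61.1%.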

Other observations

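On the X chromosome, 7 of 373 boundaries lay at a microRNA gene (1.88%, 95% Wilson interval 0.912 to 3.82), with 14 of its 142 microRNA genes. Their median strength was 0.513, beside 0.396 over all X boundaries, and 4 of the 7 were strong, beside 36.5% of all X boundaries. The 6 genes from Mir363 to Mir106a, a cluster related to the miR-17 to 92 cluster, stood together at 1 weak boundary of strength 0.319, between 9.27 and 10.1 kb from its midpoint. Mir351, Mir503 and Mir322, which are known from muscle and the cell cycle, stood at another weak boundary of strength 0.356. Among these 7 boundaries the highest strength was 0.841, beside Gm25063.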
